A study of Mus musculus with 23 samples.

Results

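Of the 18 arrays of liver RNA from furan-treated mice, 4 carried abundant transcripts of pancreatic digestive enzymes and 14 did not. The 4 pancreas-rich arrays were 2 mg/kg replicates 1 and 5, 4 mg/kg replicate 1 and 8 mg/kg replicate 5. They were chosen by the measured level of those transcripts, with Cpb1, Pnlip, Try4 and Clps as markers, out of 23 arrays in the whole series. Every value of the pancreas-rich against the other furan arrays below is therefore a description with no test.

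The animals were female mice of the B6C3F1 hybrid strain. By gavage over 21 days they received furan at doses of 1, 2, 4 or 8 mg/kg (4, 5, 4 and 5 arrays in that order), or corn oil alone as control (5 arrays), and livers were collected 4 h after dosing ended. Furan is a volatile product of heated food that the liver oxidises to a reactive dialdehyde. All groups share sex, strain, vehicle and route, and every array was labelled as liver.

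The exocrine pancreas is built of acinar cells, which make digestive enzymes, store them as inactive precursors in zymogen granules and release them into ducts. A few enzyme messages make up a large part of acinar RNA. A mouse pancreas is a diffuse gland that lies in mesenteric fat close to the stomach, duodenum and spleen, with islets of endocrine cells inside it. Hepatocytes do not normally make most of these enzymes.

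Each array compared liver RNA (Cy5) with a common reference RNA (Cy3), and levels are log2 ratios of the 2 dyes. The number of probes well above background in Cy5 was 24185 to 30114 (median 27904) on the pancreas-rich arrays and 22010 to 29447 (median 25354) on the other furan arrays, and 0 Cy5 spots were saturated. Of 55681 probes, 26442 passed the filter and gave 20460 genes. A gene could pass through the pancreas-rich arrays alone, and 1677 genes did, which favours genes that are high there. The defining markers of hepatocytes were high on the pancreas-rich arrays as on the rest: Alb, serum albumin, had log2 ratios of 6.44, 7.55, 7.32 and 7.01, against 6.40 to 7.57 (median 6.62) on the other furan arrays.

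The digestive enzyme score separates the arrays. It is the mean, over the 23 enzyme genes measured, of an array's log2 ratio minus the control mean. It was 5.81 and 5.52 on 2 mg/kg replicates 1 and 5, 6.02 on 4 mg/kg replicate 1 and 4.68 on 8 mg/kg replicate 5. The other 14 furan arrays lay between -0.56 and 0.20 with a median of -0.08, and the 5 control arrays between -0.21 and 0.19. The lowest array inside the set thus stood at 4.68, and the highest outside it, 1 mg/kg replicate 3, at 0.20, with no array between. Enzyme genes took 0.0257 to 0.177% (median 0.0794%) of the summed Cy5 signal on the pancreas-rich arrays, against 0.00215 to 0.00349% (median 0.00266%) on the other furan arrays and 0.00279 to 0.00317% on the controls. All 23 enzyme genes were well above background in Cy5 on each pancreas-rich array, against 6 to 8 on the others and 6 or 7 on controls. That count follows in large part from the filter, since 17 of the 23 had passed only through the pancreas-rich arrays. In bulk tissue more acinar cells and more RNA per acinar cell cannot be told apart.

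**Figure D1:**
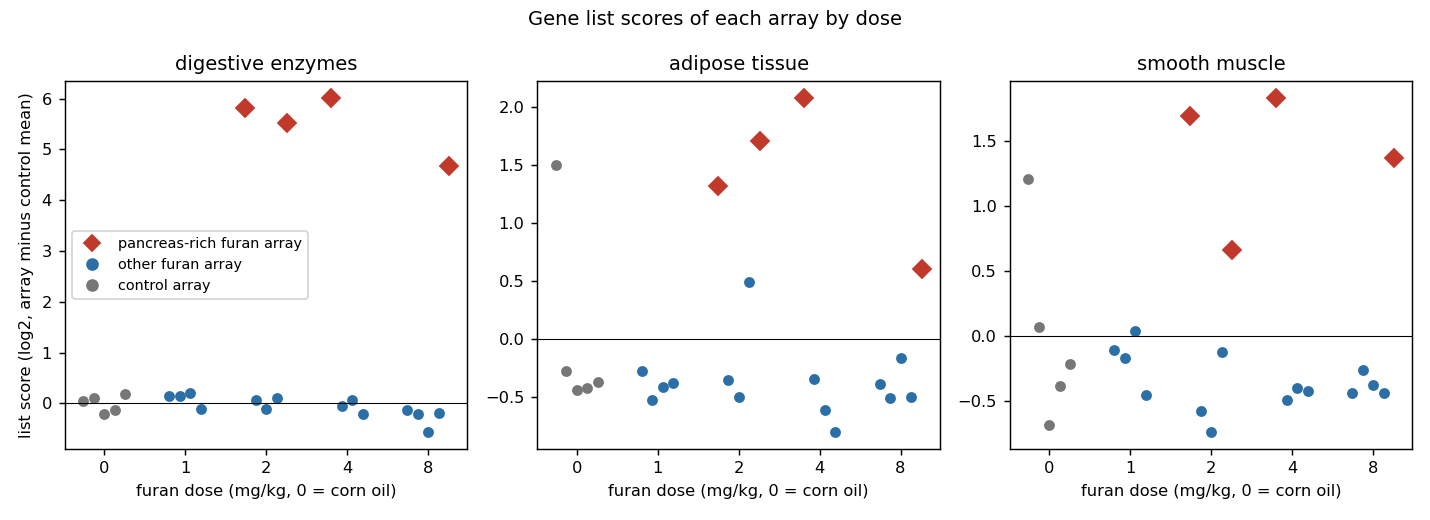
Scores of 3 gene lists (y axis, log2, array minus control mean, with a scale of its own in each panel) for each of 23 arrays by furan dose (x axis, mg/kg, 0 is corn oil). Diamonds are the 4 pancreas-rich arrays, at 4.68 to 6.02 for digestive enzymes with all other furan arrays at or below 0.20. The 1 control array high in the adipose (1.50) and smooth muscle (1.21) panels is control replicate 1, which is at 0.04 for enzymes.

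The 4 markers cover a peptidase, a lipase with its cofactor and a trypsinogen. In what follows, values of the pancreas-rich arrays are given in the order 2 mg/kg replicates 1 and 5, 4 mg/kg replicate 1 and 8 mg/kg replicate 5, and a difference is the dose-adjusted log2 difference of pancreas-rich minus other furan arrays. Cpb1, carboxypeptidase B1, which trims basic residues from peptides, had log2 ratios of 9.64, 10.65, 10.90 and 9.45, against -0.47 to 1.59 (median 0.15) on the other furan arrays. All 4 values lay far above all 14, and above controls at -0.87 to 0.34. Within the doses of 2, 4 and 8 mg/kg the mean difference was 9.52, 10.73 and 9.62. The probe was well above background on 0 of the 14 arrays, so the dose-adjusted difference of 9.88 rests on near-background signals there, and the level is given as at least 212-fold higher.

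Such a bound sets the mean normalised Cy5 signal of the pancreas-rich arrays against, for each other array, the higher of the probe's own signal and the lowest signal well above background. It is a bound on Cy5 and not on the ratio, and it can exceed the fold of the ratio where Cy3 was higher too, as for Cpa1, Prss2 and Zg16. Pnlip, pancreatic triacylglycerol lipase, had 8.53, 8.45, 9.61 and 7.67, against -0.65 to -0.12 (median -0.43), and was at least 175-fold higher. Try4, a trypsinogen, had 7.83, 7.71, 8.16 and 6.61, against -3.34 to -1.33 (median -1.99), and was at least 537-fold higher. For both genes the 2 sets of arrays were separate, and 8 mg/kg replicate 5 was the lowest of the 4.

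Clps, colipase, the cofactor of Pnlip, differed from these in being well above background on all 14 other arrays. It had 6.26, 6.62, 6.62 and 5.17, against 0.16 to 0.96 (median 0.68), a difference of 5.47. A second probe of Clps gave 7.19. Raw processed Cy5 signals show the same contrast without the reference dye: Cpb1 read 34128, 7699, 23659 and 3898 units, against 7.34 to 22.9 (median 13.6) on the other furan arrays.

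The upstream sequences of 4 enzyme genes with large differences and of Pnlip are printed because the genes moved together on the same 4 arrays. Acinar genes are known targets of PTF1, a complex that binds an E-box and a second, TTTCCC-like box. The 250 bases before each start come from RefSeq, assembly GRCm38.p6, 5′ to 3′ on the gene's strand. Capitals mark CACCTG or its reverse complement CAGGTG, and TTTCCC or its reverse complement GGGAAA.

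Cpb1, chr3:20275734-20275983, minus strand: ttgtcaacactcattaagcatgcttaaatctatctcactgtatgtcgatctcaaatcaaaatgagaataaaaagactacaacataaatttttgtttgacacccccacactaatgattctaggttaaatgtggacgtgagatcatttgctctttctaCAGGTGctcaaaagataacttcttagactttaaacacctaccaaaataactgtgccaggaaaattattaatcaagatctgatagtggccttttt
Try4, chr6:41302022-41302271, plus strand: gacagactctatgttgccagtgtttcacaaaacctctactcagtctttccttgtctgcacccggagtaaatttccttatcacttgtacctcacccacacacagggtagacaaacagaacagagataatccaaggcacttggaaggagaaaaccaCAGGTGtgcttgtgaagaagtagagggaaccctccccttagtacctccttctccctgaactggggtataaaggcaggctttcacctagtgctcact
Cela3b, chr4:137430521-137430770, minus strand: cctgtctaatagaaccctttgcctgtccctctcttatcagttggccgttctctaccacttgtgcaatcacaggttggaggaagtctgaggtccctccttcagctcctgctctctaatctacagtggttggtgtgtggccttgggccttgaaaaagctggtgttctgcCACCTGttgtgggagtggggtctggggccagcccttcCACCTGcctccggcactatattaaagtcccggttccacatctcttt
Prss2, chr6:41521526-41521775, plus strand: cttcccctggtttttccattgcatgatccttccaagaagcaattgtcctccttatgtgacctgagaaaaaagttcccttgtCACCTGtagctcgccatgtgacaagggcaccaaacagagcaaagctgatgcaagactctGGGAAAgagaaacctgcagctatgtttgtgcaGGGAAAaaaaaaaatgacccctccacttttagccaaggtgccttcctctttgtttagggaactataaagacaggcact
Pnlip, chr19:58670115-58670364, plus strand: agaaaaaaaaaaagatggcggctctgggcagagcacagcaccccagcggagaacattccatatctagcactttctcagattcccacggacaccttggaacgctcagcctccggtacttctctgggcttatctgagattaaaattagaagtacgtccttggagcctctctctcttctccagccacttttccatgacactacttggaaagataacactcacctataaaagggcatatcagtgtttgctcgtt

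Cpb1 and Try4 each held 1 E-box, starting 94 and 96 bases before the start. Cela3b held 2, at 83 and 46 bases. Prss2 held 1, at 169 bases, with 2 second boxes at 110 and 78 bases, and Pnlip held neither motif in this window. Over 20 measured enzyme genes with an entry in the RefSeq table, 13 (65%) held the E-box, 9 (45%) the second box and 7 (35%) both. Over all 32851 promoters of the table, these shares were 17.2%, 21.9% and 3.61%. TATAAA, read on the gene's strand only, was in 8 enzyme promoters (40%), against 7.59% of all. A match is a string of letters and does not show that a factor was bound.

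Across the 20460 genes, 130 were at least 2-fold higher (0.635% of all genes) and 11 at least 2-fold lower (0.0538%) on the pancreas-rich than on the other furan arrays. The median difference of all genes was 0.01. Of the 130, 93 had passed the filter only through the pancreas-rich arrays, 35 stood in the acinar lists and 95 did not. All 4 arrays lay above all 14 for 67 genes (0.327%), 30 of them in the acinar lists, and below all 14 for 4 genes (0.0196%). The counts depend on the processing: the deposited ratio table gave 62 and 0 genes past 2-fold, and a normexp background correction gave 57 and 0. Leaving out 2 mg/kg replicate 1, 2 mg/kg replicate 5, 4 mg/kg replicate 1 or 8 mg/kg replicate 5 moved the lower count to 20, 27, 32 and 26.

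Of 35 listed digestive enzyme genes, 25 were on the array and 23 were measured. Of these, 17 had passed only through the pancreas-rich arrays, and 1810009J06Rik and Amy2a4 did not pass. All but 1 of the 23, Amy2a5, were at least 2-fold higher and without overlap between the arrays. The median difference of the 23 was 5.47, against 0.01 for all genes. It was 3.16 with a filter that asked for 4 arrays of 1 dose group, and 3.92 with normexp. On the other furan arrays 14 of the 23 genes were well above background nowhere, so bounds are given for these.

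The 6 measured genes of the trypsin family had a median difference of 6.67. Try5 had 7.72, 6.39, 7.71 and 5.89, against -4.63 to 0.16 (median -3.34). Its probe was well above background on 1 of the 14 arrays, so the difference of 9.81 rests on near-background signals. Prss2 and Prss1, both trypsinogens, were at least 139-fold and 49.9-fold higher, and 2210010C04Rik and Gm5771 at least 3.63-fold and 4.31-fold. The trypsinogen genes are close copies, and whether a probe binds the message of a neighbour was not tested.

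Among elastases and chymotrypsins, which also cut proteins, Cela3b had 6.13, 6.68, 7.17 and 6.39, against -0.91 to 0.81 (median -0.42). It was at least 125-fold higher. Ctrl and Cela1, well above background on all 14 arrays, differed by 3.26 and 3.06. Cela3a and Cela2a differed by 5.53 and 3.87, with probes well above background on 1 and 3 of the 14 arrays. Ctrb1, chymotrypsinogen B1, had the lowest difference of the group at 2.36, with 4.27, 5.68, 4.62 and 4.54, against 1.65 to 3.26. The 2 sets of Ctrb1 values did not overlap, but its level on the other furan arrays was already well above background on 14 of 14.

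Cpa1, a carboxypeptidase that trims other residues than Cpb1, was at least 330-fold higher in Cy5, against 43.8-fold for the ratio. Among lipid-digesting proteins, Pnliprp1 and Pnliprp2, relatives of Pnlip, were at least 78.0-fold and 4.19-fold higher, and the phospholipase Pla2g1b at least 7.72-fold. The bile salt-dependent lipase Cel, measured on all arrays, differed by 4.31. Rnase1, pancreatic ribonuclease, was at least 12.8-fold higher. Amy2a5, pancreatic amylase, was the enzyme gene that overlapped: it had 7.65, 7.83, 8.70 and 8.00, against 6.57 to 8.68 (median 7.38). A second probe gave 1.86, against 0.57 for the brighter one. Amylase genes are near-identical copies, and liver makes an amylase of its own, so the probe's target is uncertain.

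Proteins of the zymogen granule and other acinar secretory products followed. Gp2, the main glycoprotein of the granule membrane, had 8.86, 4.59, 9.38 and 6.90, against -0.30 to 1.27 (median 0.05), and was at least 30.9-fold higher. Sycn (syncollin), a granule protein, differed by 6.38, and Zg16, another, was at least 86.6-fold higher. Pdia2, a pancreatic disulfide isomerase, had 5.71, 3.17, 5.12 and 3.14, against -1.95 to 0.70 (median -0.74), and the serpin Serpini2 was at least 2.97-fold higher. All 5 were without overlap. Gp2, Zg16, Pdia2 and Serpini2 had passed the filter only through the pancreas-rich arrays, being well above background on 0 of the 14 others.

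The other 5 measured members overlapped: Dmbt1 (difference 3.48), Cuzd1 (2.84), the trypsin inhibitor Spink1 (1.80), the kallikrein Klk1 (1.43) and the chaperone Erp27 (0.54). The probe of Cuzd1 was well above background on 0 of the 14 arrays and that of Dmbt1 on 3, so these differences rest on near-background signals. Both genes had passed the filter only through the pancreas-rich arrays. Cuzd1 was high on 3 of the pancreas-rich arrays, at 4.85, 3.87 and 3.73, and at -0.26 on 8 mg/kg replicate 5. Of the 14 symbols listed, 13 were on the array (Spink3 is an older name of Spink1), and Tmed6, Aqp12 and Cckar did not pass the filter.

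Reg proteins are secreted lectins of the acinar cell that increase in injury. Reg1 had 10.84, 9.07, 9.43 and 8.60, against -0.28 to 1.41 (median 0.09), and was at least 125-fold higher. Reg2 and Reg3d were at least 7.51-fold and 3.83-fold higher, each without overlap. All 3 measured Reg genes had passed the filter only through the pancreas-rich arrays. Reg3a, Reg3b and Reg3g did not pass the filter. Transcription factors of the acinar cell were not as clear: Rbpjl, a subunit of PTF1, had 0.35, -1.69, 0.38 and -0.85, against -2.53 to -1.17 (median -1.94), and its difference of 1.46 came with overlap. Its probe was well above background on 7 of the 14 arrays, so it too had passed only through the pancreas-rich arrays. Gata4 and Nr5a2, which liver expresses too, differed by -0.06 and 0.01, and Ptf1a and Bhlha15 did not pass.

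**Figure D2:**
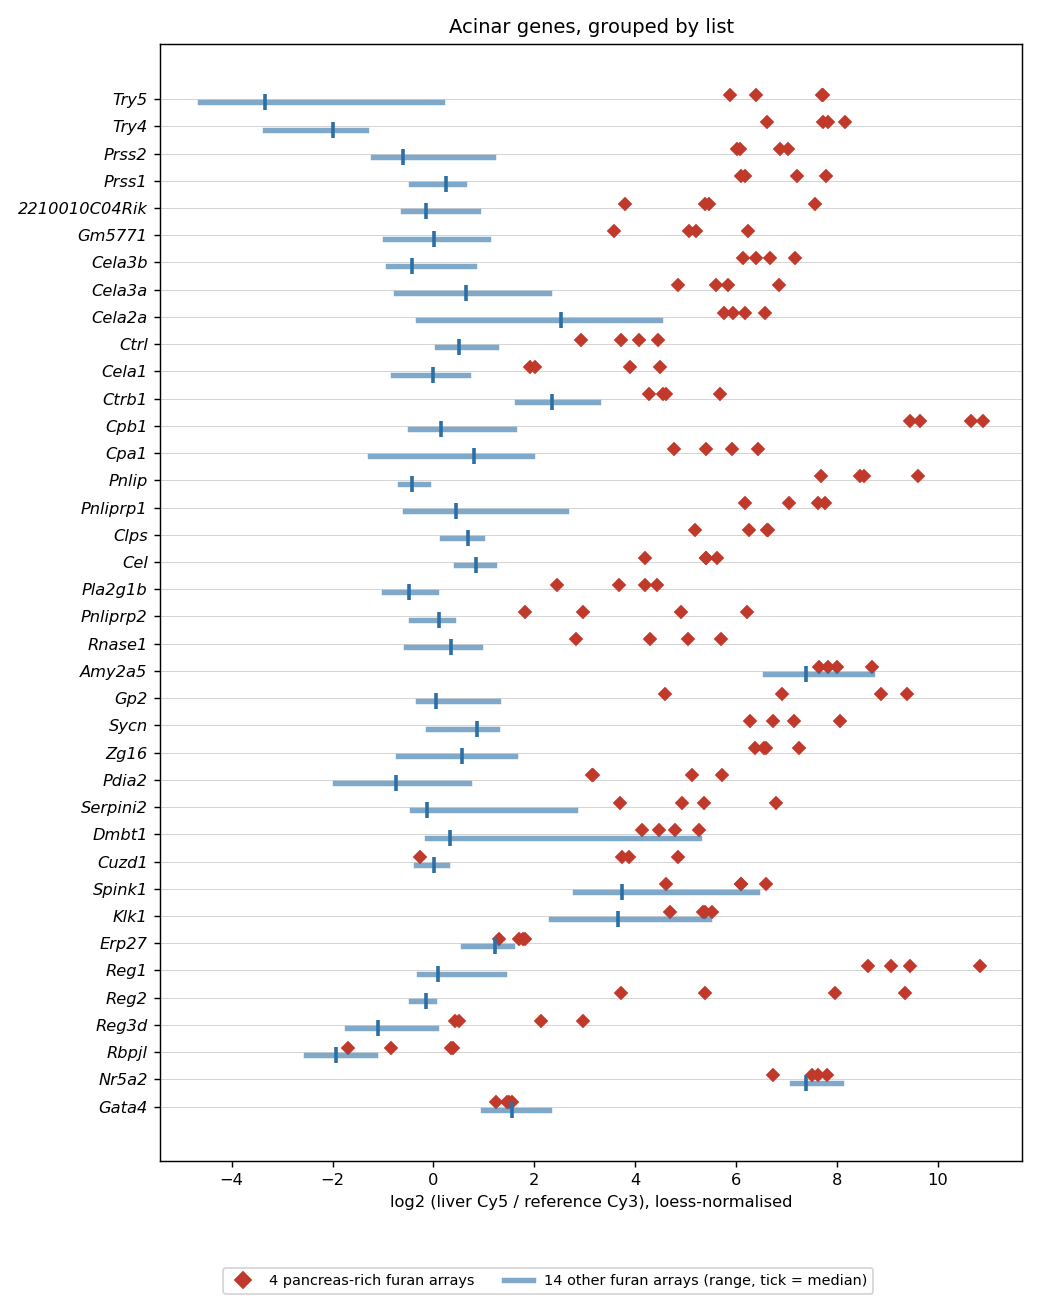
Log2 ratios of liver to reference RNA (x axis) for 38 acinar genes (y axis, grouped by list). Diamonds are the 4 pancreas-rich arrays, and bars span the 14 other furan arrays with a tick at their median. The sets are apart for 29 genes and overlap for the others, such as Amy2a5, Dmbt1, Spink1, Klk1, Nr5a2 and Gata4.

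The 4 arrays also differed among themselves. The median shift of the 22 non-overlapping enzyme genes, relative to the mean of the other furan arrays, was 6.02, 5.72, 5.73 and 4.42. Over the 30 non-overlapping acinar genes, the shifts of any 2 arrays correlated at 0.73 to 0.94, as a description over genes that share both arrays. The closest pair was 4 mg/kg replicate 1 with 8 mg/kg replicate 5 (0.94), which share a slide. Pairs on different slides ran from 0.73 to 0.93. The lowest was between the 2 arrays of 2 mg/kg, and the highest between 2 mg/kg replicate 5 and 8 mg/kg replicate 5.

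The spread among the 4 arrays was graded over genes. After each array's median enzyme shift was taken off, the SD over the 4 arrays was 2.12 for Gp2, 1.97 for Reg2 and 1.74 for the lipase relative Pnliprp2, followed by 1.01 for Cela1, down to 0.22 for Cel. Relative to that median, Gp2 stood at 2.65, -1.32, 3.47 and 2.29, so it was low on 2 mg/kg replicate 5 only. Pnliprp2 stood at 0.14, -3.94, -0.88 and -1.51, lowest on the same array. Reg2 stood at 3.50, -0.17, 2.39 and -0.55, high on both arrays with replicate number 1.

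**Figure D3:**
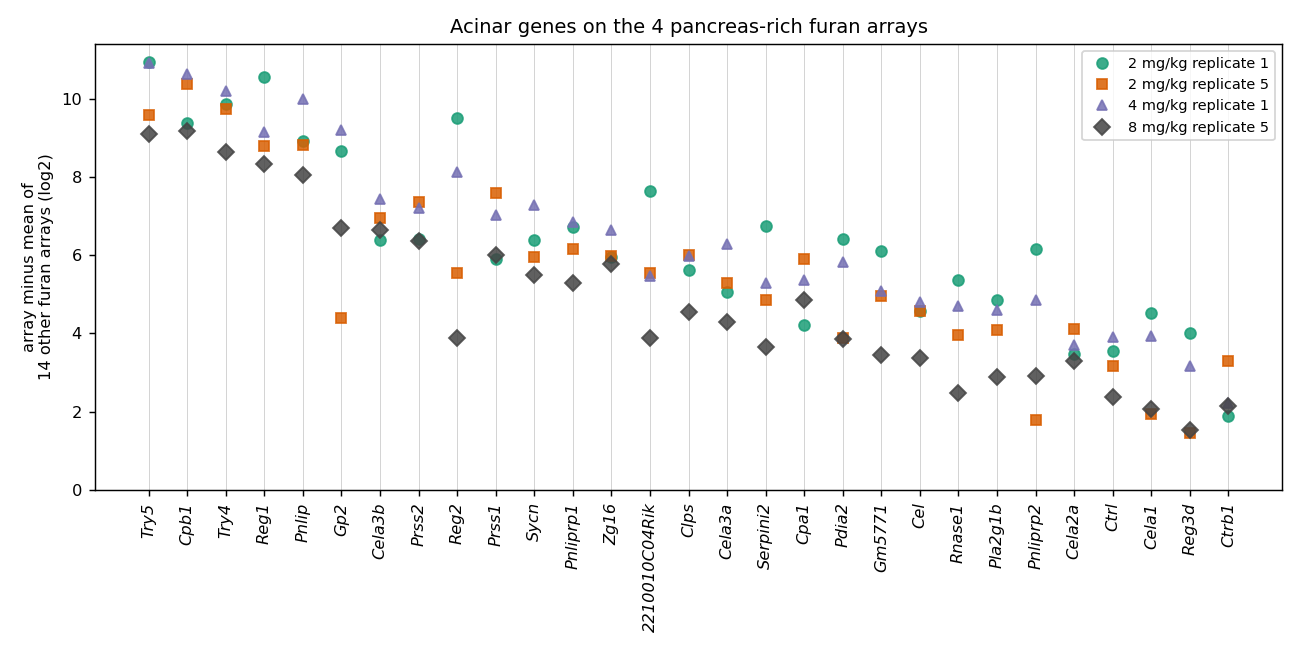
Shift of 29 acinar genes (x axis, ordered by mean shift) on each pancreas-rich array relative to the mean of the 14 other furan arrays (y axis, log2). 8 mg/kg replicate 5 is lowest for most genes (median enzyme shift 4.42), and Gp2, Reg2 and Pnliprp2 spread most.

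The reference channel differed as well. Cy3 holds the same reference RNA on every array, yet Cy3 signals of the 23 enzyme genes, normalised between arrays, were higher on the pancreas-rich arrays by a median of 1.00 (range -0.89 to 4.60), against 0.01 for all genes. In Cy5 their median was 7.04. Cpa1 showed the most: its Cy3 signal was 1970, 203, 656 and 171 units, against 8.51 to 37.9 (median 23.5) on the other furan arrays. Its Cy5 signal was 46628, 15372, 34161 and 6629 units, against 8.21 to 46.9. Cy3 was higher by at least 1 on the log2 scale for 12 of the 23 genes and lower for 3, among them Cpb1 (-0.04). A ratio takes Cy3 off, so the log2 difference of Cpa1 was 5.45 as a ratio and 10.05 in Cy5 alone. The cause of the Cy3 difference was not tested.

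Other cells of the pancreas left little trace. Of 26 islet genes, 9 passed the filter, with a median difference of -0.08, and 0 were past 2-fold. The hormone genes Ins1, Gcg, Sst, Ppy and Iapp did not pass. Ins2, the second mouse insulin gene, had 0.52, 1.51, 1.10 and 0.29, against -0.07 to 1.14 (median 0.31), with overlap. Of 16 duct and cholangiocyte genes, 10 were measured with a median of 0.10 and 0 past 2-fold. Ductal cells share markers with the liver's own bile ducts.

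Markers of neighbouring organs were mixed. In the small intestine list 8 of 20 genes were measured, and Zg16, which acinar cells make too, was the 1 past 2-fold. Fabp2, the fatty acid carrier of enterocytes, overlapped at 8.99, 10.13, 10.07 and 9.42, against 8.00 to 10.14. In the stomach list 5 of 15 genes were measured, with a median difference of 0.54, and Tff2 was the 1 past 2-fold. Tff2, a mucus peptide of the stomach, had 4.67, 4.72, 5.62 and 4.85, against 1.05 to 5.41 (median 2.80), so 3 of the 4 arrays fell within the range of the others. It had passed the filter only through the pancreas-rich arrays (well above background on 5 of the 14 others) and read 5.13 on control replicate 1. Gkn3 and Atp4a differed by 0.67 and 0.54, and Muc5ac by -0.48. The B cell and lymphoid list, which would mark spleen or lymph node, had a median of 0.09 over 13 genes and 0 past 2-fold.

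Adipose genes were higher on the pancreas-rich arrays, but not on them alone. Of 13 listed, 10 were measured, 4 were at least 2-fold higher and 2 did not overlap, with a median difference of 0.58, or 0.27 with the filter on dose groups. The 4 genes past 2-fold, Cfd, Adipoq, Retn and Plin1, had passed the filter only through the pancreas-rich arrays. The list score was 1.32, 1.70, 2.08 and 0.61, against -0.80 to 0.49 (median -0.40) on the other furan arrays. Control replicate 1 scored 1.50 and the other controls -0.44 to -0.27. Cfd, adipsin, a protease secreted by fat cells, had 7.06, 8.57, 8.89 and 4.84, against -0.58 to 4.73 (median 0.73). Its difference of 6.31 rests on near-background signals, since the probe was well above background on 1 of the 14 arrays.

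Cfd reached 7.41 on control replicate 1, against -0.76 to 1.10 on the other controls, and its 4.73 among the other furan arrays was on 2 mg/kg replicate 4. Adipoq, adiponectin, had 4.98, 4.64, 5.73 and 3.10, against -1.37 to 3.04 (median -0.24), and 4.24 on control replicate 1, and was at least 5.36-fold higher than on the other furan arrays. Retn (resistin) and Plin1, the coat protein of fat droplets, were at least 3.39-fold and 1.57-fold higher, with overlap. The probes of Adipoq, Retn and Plin1 were well above background on 3 of the 4 pancreas-rich arrays and on 0 of the other 14.

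Smooth muscle genes were higher on all 4 arrays, with the same control array apart. The list score was 1.69, 0.66, 1.83 and 1.37, against -0.74 to 0.04 (median -0.41), with 1.21 on control replicate 1. Of 8 listed genes, 7 were measured, all 7 differences were above 0 and 4 were at least 2-fold. The contractile genes Cnn1 (calponin), Actg2 (a smooth muscle actin) and Myh11 (smooth muscle myosin) differed by 3.77, 2.74 and 2.68 without overlap, and Synpo2 by 2.34 with it. Of these, Cnn1, Myh11 and Synpo2 had passed the filter only through the pancreas-rich arrays, being well above background on 6, 5 and 0 of the 14 others. The list's median difference was 2.34, but 0.84 in the deposited ratio table, 0.80 with normexp and 0.79 with the filter on dose groups. What part fat or smooth muscle RNA had in other differences was not tested.

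Matrix genes shifted less. All 11 measured stellate cell and fibroblast genes had differences above 0, against 51.9% of all genes, with a median of 0.29. With the slide as a block 9 of the 11 were above 0, with a median of 0.22. For 3 of the 11 all pancreas-rich arrays lay above the other furan arrays, against 0.327% of all genes. Dpt, dermatopontin, had 2.00, 0.97, 1.80 and 1.13, against -0.26 to 0.74 (median 0.07), and 1.31 on control replicate 1. The collagens Col1a1 and Col3a1 differed by 0.75 and 0.54. Among 3 measured mesothelial genes, Wt1, well above background on 1 of the 14 arrays, differed by 1.56 with overlap, and Msln by 0.03.

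Several genes outside the acinar lists followed Cpb1 closely over the 18 furan arrays. Out of 13170 genes compared, Pearson's r was 0.983 for Retnla, 0.930 for Pdlim3, 0.903 for Cfd, 0.900 for Crispld2, 0.895 for Dpt, 0.887 for Actg2, 0.879 for Tppp3, 0.876 for Tcap, 0.873 for Adipoq and 0.868 for Plxdc2, against a median of 0.03 over all genes. The 18 points fall into 2 clusters, so r mostly restates the separation of 4 from 14, which Cpb1 as a marker helped to define. Retnla, Pdlim3, Cfd, Tppp3, Tcap and Adipoq had passed the filter only through the pancreas-rich arrays. Their probes were well above background on 0, 3, 1, 1, 3 and 0 of the 14 others, so their low values are near-background signals. Retnla, a resistin relative found in white fat and some macrophages, had 5.61, 6.14, 6.93 and 4.75, against -0.09 to 1.98 (median 0.21), and was at least 5.22-fold higher.

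These genes were high on control replicate 1 too, where most acinar genes were not. That array read 6.08 for Retnla, 3.75 for Pdlim3 and 5.86 for Tcap, a sarcomere protein of striated muscle, and 0.21 for Cpb1. Retnla also read 4.09 on control replicate 4 and 2.62 on control replicate 5, against at most 1.98 on the other furan arrays. Of the 95 genes outside the acinar lists that were at least 2-fold higher on the pancreas-rich arrays, 28 were also at least 2-fold higher on control replicate 1 than on any other control, against 2 of the 35 acinar genes and 193 of all 20460 genes. Dmbt1, for example, read 4.01 on that array. All 4 pancreas-rich arrays lay above all 5 controls for 11 of the 95, and for 36 of the 95 when control replicate 1 was left out. Over all 20460 genes these counts were 491 and 747. For the 35 acinar genes the count was 31 with and without control replicate 1.

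**Figure D4:**
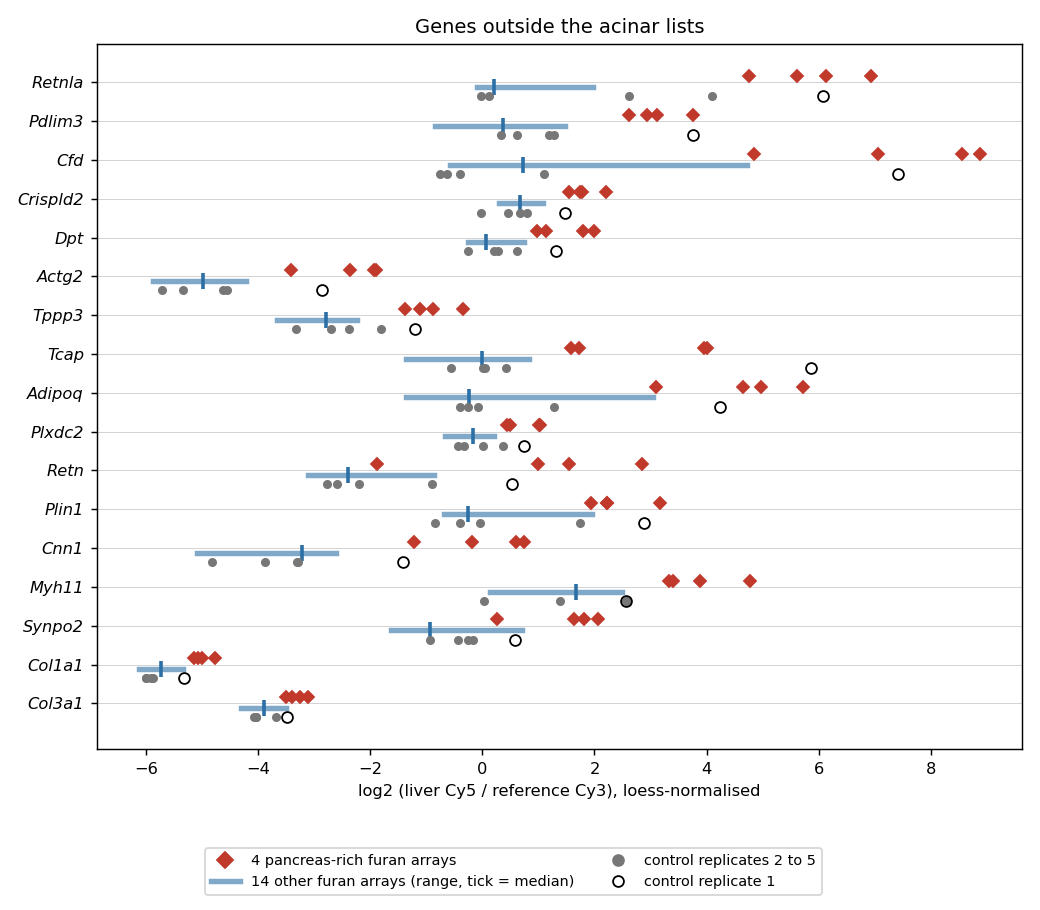
Log2 ratios (x axis) of the 10 genes most like Cpb1 and of 7 further adipose, smooth muscle and collagen genes (y axis). Diamonds are the 4 pancreas-rich arrays, bars with a median tick the 14 other furan arrays, filled circles control replicates 2 to 5 and open circles control replicate 1, which reads 7.41 for Cfd and 6.08 for Retnla.

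The direction of hepatocyte genes was not the same in all fits. Without a slide term, differences were above 0 for 21 of 23 secreted proteins (median 0.23) and 23 of 25 enzymes (median 0.29), against 51.9% of all genes. The slide moved with this: the 4 arrays of slide 3, among them 2 mg/kg replicate 5, had hepatocyte enzyme scores of 0.80 to 1.04, and no other array exceeded 0.19. With the slide as a block the medians were -0.08 and -0.04, with 5 of 23 and 6 of 25 above 0. Leaving out 2 mg/kg replicate 5, with no slide term, gave -0.04 and 0.02, with 8 of 23 and 13 of 25 above 0. That array is the 1 pancreas-rich array of slide 3, and whether the slide gave the shift was not tested. Cyp2e1, which oxidises furan, had 6.72, 8.03, 6.95 and 6.60, against 6.60 to 7.91 (median 6.95).

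Genes of protein folding in the endoplasmic reticulum, of which acinar cells have much, were slightly higher in the median. Of these, 22 of 25 had differences above 0, against 51.9% of all genes. Their median was 0.21, or 0.14 with the slide as a block. The list score was 0.22, 0.66, 0.27 and 0.12, against -0.10 to 0.34 on the other furan arrays, so only 2 mg/kg replicate 5 lay outside that range. Creld2 and Sdf2l1, both induced by misfolded protein, differed by 0.57 and 0.50. The highest Creld2 value, 0.61, was on 2 mg/kg replicate 5, and the other three read -1.13, -0.87 and -0.92, against -1.78 to -0.54 on the other furan arrays.

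Genes of the furan response had small dose-adjusted differences, but some differed within a dose. Cdkn1a, the p53-induced cell cycle inhibitor, differed by -0.11, Mdm2, the p53 ubiquitin ligase, by -0.14, Gdf15, a stress cytokine, by -0.27, and Nqo1, an NRF2 target, by -0.21. Jun differed by 0.13, Afp, alpha-fetoprotein, by 0.29 and the glutathione transferase Gsta1 by -0.09. Within the doses of 2, 4 and 8 mg/kg Afp differed by -0.28, 1.43 and 0.08, and Gsta1 by -0.72, 1.37 and -0.52. The lists had medians of -0.07 for p53 targets (8 of 21 above 0), -0.09 for NRF2 and glutathione (8 of 24), -0.16 for heat shock (2 of 15) and -0.21 for the cell cycle (2 of 20). With the slide as a block these were -0.04, -0.06, -0.07 and -0.06. Top2a, the replication topoisomerase, had the largest cell cycle difference, -0.71, with overlap.

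Few genes were lower. Of the 11 genes past 2-fold, 7 had a symbol. Pkd1l3, a polycystin relative, was the 1 named gene with all 4 arrays below all 14, at 1.09, 0.79, 1.07 and 1.08, against 1.16 to 1.84 (median 1.40), a difference of -0.43. Lyve1, a marker of sinusoidal endothelium, had 5.09, 7.71, 7.25 and 5.37, against 6.80 to 8.05 (median 7.59). It was thus low on 2 of the 4 arrays, and in the deposited ratio table its difference was 0.19 in place of -1.17. The antimicrobial peptide gene Camp differed by -1.05, and by -1.76, -0.76 and -0.25 within the doses of 2, 4 and 8 mg/kg. Among the other arrays, 2 mg/kg replicate 4 read 4.72 for Camp and scored 2.69 for the neutrophil list.

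**Figure D5:**
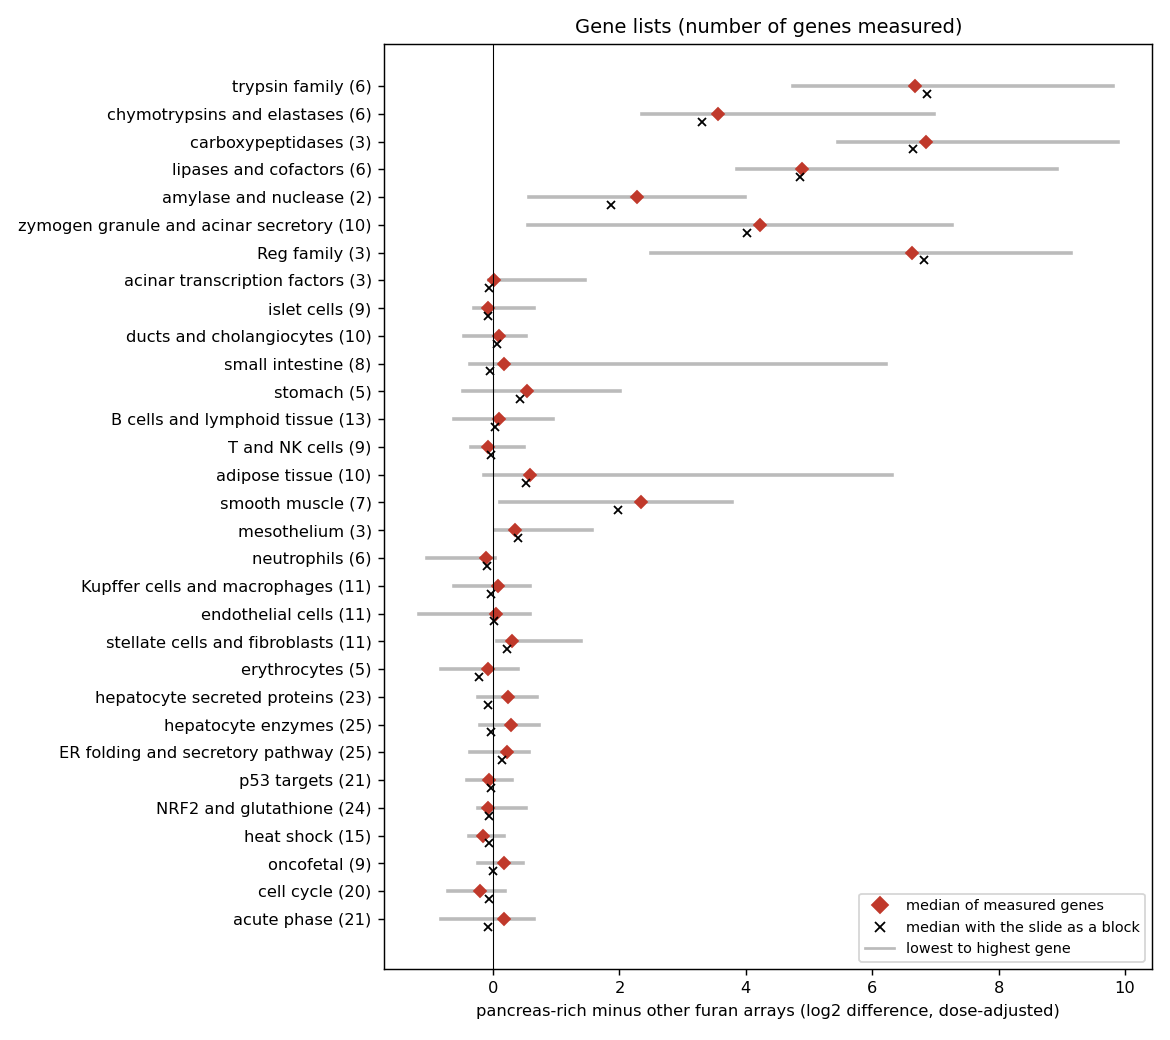
Dose-adjusted log2 difference of pancreas-rich minus other furan arrays (x axis) for 31 gene lists (y axis, number of genes measured). Diamonds are list medians, crosses the medians with the slide as a block and grey lines the range over genes. Of the acinar secretory lists, 6 lie farthest to the right, and amylase and nuclease (2.28) lies beside smooth muscle (2.34), with adipose tissue at 0.58.

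The dose groups come from the labels, so each was tested against controls with and without the pancreas-rich arrays (limma, Benjamini-Hochberg over 20512 genes, adjusted p under 0.05). At 8 mg/kg 1557 genes passed (7.59%), 831 higher (4.05%) and 726 lower (3.54%). Without the 4 arrays 1179 passed (5.75%), 651 higher (3.17%) and 528 lower (2.57%), with 1110 of the 1179 shared. With the enzyme score as a covariate 1483 passed, 1427 of them shared. At 4 mg/kg 15 genes passed (0.0731%) with all arrays, 5 (0.0244%) without the 4 arrays, all 5 shared, and 12 with the covariate, but 57 with the slide as a block and 54 with median centring in place of loess. This count ran from 6 to 23 when any 1 of the 23 arrays was left out. At 1 and 2 mg/kg 0 genes passed limma's test with all arrays, without the 4 or with the covariate. Leaving out 8 mg/kg replicate 3 alone gave 4 genes at 2 mg/kg. An unadjusted p under 0.05 in limma was reached by 1747 genes at 2 mg/kg with all arrays and 1318 without the 4. At 1 mg/kg, where no array was pancreas-rich, these counts were 712 and 749.

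None of the 39 acinar genes passed at any dose in any of the 3 fits, although group means moved. The fit without the 4 arrays drops those chosen by such transcripts, and the covariate is the mean of the enzyme genes themselves. Neither of those fits can show whether dose moved acinar genes. In the limma fit of all arrays, the difference of Cpb1 from controls was 4.50 ± 2.33 (SE), 2.92 ± 2.47 and 1.82 ± 2.33 for the doses of 2, 4 and 8 mg/kg (adjusted p = 0.622, 0.813 and 0.748). Without the 4 arrays these were 0.69 ± 0.34, 0.24 ± 0.34 and -0.10 ± 0.31 (adjusted p = 0.784, 0.924 and 0.917). The 4 arrays had been chosen by Cpb1 and other enzyme transcripts, so values near the control level without them follow from that choice. The median residual SD of the enzyme genes was 2.27 with the 4 arrays and 0.54 without them, against 0.242 and 0.236 for all genes. That drop for the enzyme genes follows from the same choice. At an unadjusted p under 0.05, limma gave 0, 3, 2 and 0 of the 39 acinar genes for rising dose with all arrays, against 712, 1747, 1802 and 4187 of all 20512 genes. Without the 4 arrays it gave 3, 0, 2 and 6 acinar genes, against 749, 1318, 1545 and 4106 of all genes.

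Calls of the furan response at 8 mg/kg were set side by side in both fits. Of 21 measured p53 targets, 16 rose and 1 fell at 8 mg/kg with all arrays, and the counts were the same without the 4. Cdkn1a rose by 2.79 ± 0.16 (SE, limma adjusted p = 2.39e-09) with all arrays and by 2.80 ± 0.17 (adjusted p = 3.37e-07) without the 4. Of 24 NRF2 and glutathione genes, 14 rose with all arrays and 13 without the 4, and of 15 heat shock genes 10 rose in both fits. At 4 mg/kg Cdkn1a rose in both (adjusted p = 0.00152 and 0.0328), whereas Gdf15 passed with all arrays (1.30 ± 0.24, SE, adjusted p = 0.0444) and not without the 4 (1.32 ± 0.22, limma adjusted p = 0.0693). A fit without the 4 arrays also has fewer animals, and what part of the drop in calls came from that was not tested.

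The pancreas-rich arrays were spread over slides 1 (4 mg/kg replicate 1 and 8 mg/kg replicate 5), 2 (2 mg/kg replicate 1) and 3 (2 mg/kg replicate 5), beside 2, 3 and 2 other furan arrays. With the slide as a block the acinar list medians kept their direction, except that of the transcription factors, which was -0.07 in place of 0.01. The labels name separate replicates but give no link between arrays and cages, dissection order or extraction. How pancreatic transcripts came to be in 4 liver samples was not tested.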

How the data were processed

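Liver RNA (Cy5) from 23 mice was hybridised against a universal mouse reference (Cy3) on 2-colour Agilent arrays with no dye swap, per the labels. The authors extracted the scans with Agilent Feature Extraction 10.7.3.1, and the processed signals they deposited are intensities from which that software had removed background and dye bias, per the file headers. Ratios of Cy5 over Cy3 on a linear scale make up the value table that the authors deposited. Further columns hold marks of 0 or 1 for each spot, per the file headers.

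The log2 ratio of processed signals was loess-normalised within each array (span 0.3, 4 iterations). A probe was kept if well above background in Cy5 on at least 3 of the 4 pancreas-rich or 10 of the 14 other furan arrays. Of 55681 probes, 26413 matched 20018 symbols of GRCm38.p6, used for names only (promoter coordinates apart), and a gene was its brightest probe. Differences are limma 3.58.1 coefficients in R 4.3.3 with dose as a factor. Dose groups were tested with lmFit and eBayes over all 23 arrays (18 residual degrees of freedom, two-sided, Benjamini-Hochberg), and the code was tested on simulated data. The planned normexp alternative used median signals, since the files hold no mean signals. The arrays, lists (31, with 458 entries) and named genes were chosen with earlier results of these data known. Named are the 4 markers, the 15 largest rises and up to 12 largest falls without overlap, up to 4 members of each list with every acinar gene, 5 hepatocyte and 7 furan-response genes, and the 10 genes most like Cpb1. The labels do not say how animals relate to cages or extraction, so p-values measure the spread between arrays. The number of arrays limits the precision. The counts and medians include 1 acinar gene that is not reported here. The series text counts more animals than the arrays analysed here.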

Additional observations from a re-analysis of the deposited data

Results flagged for a closer look

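In groups of 4 or 5 arrays, an array was marked when it stood far from the rest of its group (gap over range, Dixon's 95% value). Of 140 groups tested, 21 were marked, and chance marks about 1 in 20. Replicates at 2 mg/kg were not marked for enzymes, since 2 high arrays in a group hide each other.

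For digestive enzymes the marked arrays were 4 mg/kg replicate 1 (score 6.02, nearest array 0.07) and 8 mg/kg replicate 5 (4.68, nearest -0.13). Their log2 ratios were marked for Cpb1 (10.90 and 9.45), Pnlip (9.61 and 7.67), Try4 (8.16 and 6.61) and Clps (6.62 and 5.17). These restate how the arrays were chosen.

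The adipose score was marked on 4 mg/kg replicate 1 (2.08) and on control replicate 1 (1.50, nearest control -0.27). The smooth muscle score was marked on 4 mg/kg replicate 1 (1.83) and 8 mg/kg replicate 5 (1.37). The small intestine score was marked on 4 mg/kg replicate 1 (0.96), where Zg16 is a member, and on 1 mg/kg replicate 4 (-0.68).

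The other marked scores were on arrays that were not pancreas-rich, all on slide 3. On 8 mg/kg replicate 3 they were hepatocyte secreted proteins (0.79), hepatocyte enzymes (0.89) and Kupffer cells and macrophages (0.48). On control replicate 2 they were hepatocyte enzymes (0.80) and acute phase genes (0.50).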

How the results depend on the processing

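Genes at least 2-fold higher and lower numbered 62 and 0 in the deposited table, 57 and 0 with normexp, 428 and 137 without a filter and 362 and 451 with the replicate number as a block. The filter on dose groups gave 59 higher, median centring 7 lower, and dose as a number or left out 5 lower each. Digestive enzymes had a median of 4.47 in the deposited table, 3.92 with normexp, 3.16 with the dose-group filter, 5.25 with dose as a number, 5.24 with no dose term and 5.88 with the replicate block. Smooth muscle had 2.65 with median centring, 0.84 in the deposited table, 0.80 with normexp, 1.56 without a filter, 0.79 with the dose-group filter, 2.68 with the replicate block and 1.97 with the slide block. Adipose tissue had 0.27 with the dose-group filter. Lyve1 reversed to 0.19 in the deposited table, and the cause was not tested. Genes past the threshold numbered 54 (median centring), 7 (no filter), 57 (slide block) and 5 (without the 4 arrays) at 4 mg/kg, and 910 (deposited table) and 932 (no filter) at 8 mg/kg. Leaving out 1 of the 4 pancreas-rich arrays or 2 mg/kg replicate 4, and no other array, gave 126 to 192 higher and 14 to 32 lower genes, and medians of 5.33 to 5.75 for enzymes, 0.46 to 0.87 for adipose tissue and 2.09 to 2.68 for smooth muscle. Leaving out each of the 23 arrays in turn gave 0 to 4, 6 to 23 and 1113 to 1727 calls at 2, 4 and 8 mg/kg (4 at 2 mg/kg without 8 mg/kg replicate 3). No call was made at 1 mg/kg (0 to 0) or among acinar genes. The 192 higher genes came without 8 mg/kg replicate 5, the 32 lower without 4 mg/kg replicate 1, and the adipose 0.87 without 8 mg/kg replicate 5. At 4 mg/kg the 6 calls came without its replicate 2 and the 23 without 2 mg/kg replicate 4. The count there was 7 to 9 without control replicates 2 or 3, 1 mg/kg replicate 3, 2 mg/kg replicates 1 or 2, 4 mg/kg replicates 3 or 4, or 8 mg/kg replicates 1 or 5. Equal replicate numbers did not pair arrays: over 43 pairs the correlation of deviations ran from -0.21 to 0.41, and 7 of 23 arrays correlated best with their own number. Probes not well above background limit folds to bounds.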
